A study of Mus musculus with 12 samples.

Results

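The nuclear and mitochondrially encoded genes of the respiratory chain were followed in mouse bone marrow cells labelled long-term hematopoietic stem cells (LT-HSCs), the rare cells at the top of blood formation. Members were the rows of the deposited gene table whose names matched the families of NADH dehydrogenase (Ndufa, Ndufb, Ndufc, Ndufs and Ndufv), succinate dehydrogenase (Sdha to Sdhd), cytochrome bc1 (Uqcr and Cyc1), cytochrome c oxidase (Cox4 to Cox8), ATP synthase (Atp5) and the protein-coding genes of mitochondrial DNA, without names that contain -ps. This gave 108 genes of 28999 rows, of which 106 passed the filter on low counts. The members were 36 nuclear subunits of complex I, 4 of complex II, 9 of complex III, 15 of complex IV and 17 of complex V, so 81 nuclear subunits in all, beside 8 complex I assembly factors (Ndufaf1 to Ndufaf8), 6 other nuclear genes and 13 mitochondrially encoded genes. Ndufa4, named for complex I, was counted with complex IV, where its protein is now placed.

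The study held 12 RNA-seq libraries in 4 groups of 3. These were LT-HSCs of Trim47-/- mice given the antimetabolite 5-fluorouracil (5-FU), which kills dividing cells, WT mice given 5-FU, untreated Trim47-/- mice and untreated WT mice. For the 5-FU groups the labels give 10 days and do not name the dose or the number of doses. Trim47 belongs to the TRIM family, many of whose proteins attach ubiquitin to others. The labels name the mutant allele only as Trim47-/- and give neither the deleted stretch, the strain, the age nor the gate by which the cells were sorted. They do not say whether the 3 libraries of a group came from separate mice, so p-values rest on differences among these 3, possibly technical ones. Libraries were made from poly(A) RNA with a stranded kit, and held 13919649 to 20703198 counted reads. Depth differed by group. It was 20661120 to 20703198 in untreated Trim47-/- libraries and 14828152 to 14885673 in untreated WT libraries. After 5-FU it was 13919649 to 13953510 in Trim47-/- libraries and 15111811 to 15151589 in WT libraries. Any effect of depth cannot be told apart from that of group. Trim47 itself stood at 10.1 to 12.2 CPM (counts set to a common, TMM-scaled library size) in Trim47-/- libraries after 5-FU, against 33.3 to 38.1 CPM in WT libraries after 5-FU, and at 16.6 to 23.7 CPM in untreated Trim47-/- libraries, against 23.8 to 24.7 CPM in untreated WT libraries. Because the deleted stretch is not named, this count does not test the deletion. All 8 LT-HSC markers were detected in every library, Slamf1 at no less than 1.59 CPM, and 9 neutrophil granule markers summed to 3228 to 6848 CPM across the libraries.

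Complexes I, III and IV of the inner mitochondrial membrane pass electrons from NADH to oxygen and pump protons, complex II feeds electrons in from succinate, and complex V, the ATP synthase, makes ATP from the proton gradient. Complex II is encoded wholly in the nucleus, while complexes I, III, IV and V each combine nuclear subunits with proteins made inside the mitochondrion from mitochondrial DNA. LT-HSCs at rest are known to rely little on respiration and to raise it when they are driven to divide or differentiate.

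Measured per length, mitochondrially encoded messages had the highest median level of all classes. By the authors' FPKM, a level set per gene length and library depth, averaged over the 12 libraries, they ran from 61.3 FPKM for mt-Nd6, the gene on the opposite strand from the others, to 6044 FPKM for mt-Co1, the catalytic subunit of complex IV, with a median of 1421 FPKM. Median levels of nuclear subunits were 12.1 FPKM for complex I, 39.5 FPKM for complex II, 30.7 FPKM for complex III, 22.8 FPKM for complex IV and 27.0 FPKM for complex V. The highest nuclear levels were those of Atp5a1 (135 FPKM) and Atp5b (134 FPKM), the alpha and beta subunits of the catalytic head of ATP synthase, and of Cox8a (123 FPKM), a small complex IV subunit. The 8 assembly factors, which help build complex I without staying in it, had a median of 3.06 FPKM.

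After 5-FU, nuclear subunits of all 5 complexes were higher in Trim47-/- than in WT. Of the 81, 49 rose, 1 fell and 31 did not pass the test (edgeR's quasi-likelihood test, adjusted p under 0.05), with a median log2 change of 0.25. Over all 16319 genes tested, 54.7% were called, 27.2% higher and 27.6% lower, and the median change was -0.0004. The split over all genes, 4434 higher and 4499 lower, became 3486 and 5361 when libraries were scaled by their total count alone, where 38 of the nuclear subunits were higher and 4 lower. In 52 of the 81 every Trim47-/- library lay above every WT library, and in 1 below, against 30.6% and 30.7% of all genes. The changes were small: 2 of the 81 were called higher at 1.5-fold, and 0 lower, against 7.67% and 12.6% of all genes (20.2% in either direction). These 2 were Cox4i2 (0.96), with a mean of about 2.4 CPM over the 12 libraries, and Atp5l (0.86). For Atp5l, 67.9% of the summed reads lay in near-identical annotated copies, so its change is uncertain.

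In complex I, 17 of 36 nuclear subunits rose and 0 fell, with a median of 0.18. Ndufb7 stood at 74.8, 77.1 and 75.6 CPM in Trim47-/- libraries after 5-FU, against 53.1, 54.3 and 50.2 CPM in WT libraries after 5-FU (log2 0.53, SE 0.0409, adjusted p = 7.95e-07). Ndufb7 is an accessory subunit of the membrane arm, and its lowest Trim47-/- library lay well above its highest WT library. Ndufb8, another membrane-arm subunit, stood at 63.3, 62.4 and 57.6 CPM in Trim47-/- libraries after 5-FU, against 48.3, 46.2 and 46.8 CPM in WT libraries after 5-FU (log2 0.38, SE 0.0471, adjusted p = 4.05e-05). Of the 7 core subunits that carry out catalysis, 3 rose, among them Ndufv1, which binds NADH and its flavin (0.30), and Ndufs8 (0.22). Ndufs1, the largest iron-sulfur subunit, had -0.05 and did not pass. Among the 29 accessory subunits, 14 rose.

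Complex II changed in part. Sdhb, its iron-sulfur subunit, stood at 87.5, 90.7 and 88.8 CPM in Trim47-/- libraries after 5-FU, against 71.7, 70.2 and 76.3 CPM in WT libraries after 5-FU (log2 0.29, SE 0.0436, adjusted p = 0.000162). Sdhd, a membrane anchor, stood at 135, 135 and 131 CPM in Trim47-/- libraries after 5-FU, against 107, 108 and 107 CPM in WT libraries after 5-FU (log2 0.31, SE 0.0319, adjusted p = 8.87e-06). Both genes had every Trim47-/- library above every WT library. The catalytic flavoprotein Sdha (-0.05) and the other anchor Sdhc (0.08) did not pass the test.

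In complex III, 7 of 9 subunits rose and 0 fell (median 0.23). Uqcrq stood at 66.1, 74.5 and 67.6 CPM in Trim47-/- libraries after 5-FU, against 49.4, 49.1 and 51.1 CPM in WT libraries after 5-FU (log2 0.48, SE 0.0451, adjusted p = 4.2e-06). Cyc1, the cytochrome c1 that hands electrons to cytochrome c, had 102, 90.2 and 96.9 CPM in Trim47-/- libraries after 5-FU, against 75.1, 73.9 and 71.6 CPM in WT libraries after 5-FU (log2 0.39, SE 0.0562, adjusted p = 0.000124). The Rieske iron-sulfur protein Uqcrfs1 rose by 0.23. The core protein Uqcrc2 (0.03) and the hinge protein Uqcrh (0.05) did not pass.

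In complex IV, 11 of 15 subunits rose and 1 fell (median 0.34). Cox6a1 stood at 119, 115 and 115 CPM in Trim47-/- libraries after 5-FU, against 90.7, 88.9 and 90.5 CPM in WT libraries after 5-FU (log2 0.37, SE 0.0311, adjusted p = 1.74e-06). Cox6b1 rose by 0.34 and Cox8a by 0.25. The subunit that fell was Cox6b2, the isoform known from testis. It had 12.2, 14.3 and 17.3 CPM in Trim47-/- libraries after 5-FU, against 21.8, 20.6 and 19.7 CPM in WT libraries after 5-FU (log2 -0.50, SE 0.115, adjusted p = 0.00315), with no overlap between the groups.

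In complex V, 12 of 17 subunits rose and 0 fell (median 0.32). Atp5b, the beta subunit, stood at 1154, 1152 and 1157 CPM in Trim47-/- libraries after 5-FU, against 927, 894 and 894 CPM in WT libraries after 5-FU (log2 0.35, SE 0.0205, adjusted p = 8.83e-08). Its alpha partner Atp5a1 rose by 0.27. The largest rise among members with at least 10 CPM was that of Atp5l, the g subunit of the membrane part, at 39.4, 39.7 and 35.5 CPM in Trim47-/- libraries after 5-FU, against 19.5, 21.9 and 21.7 CPM in WT libraries after 5-FU (log2 0.86, SE 0.0626, adjusted p = 4.89e-07). Of all reads on Atp5l and its near-identical annotated copies, 67.9% lay in the copies, so its own count is uncertain. With the copies added, a setting chosen after seeing the data, Atp5l had a log2 change of 0.47 and was still called. Among the 8 complex I assembly factors 1 rose, Ndufaf8 (0.36), and 0 fell. The medians by complex, 0.18 to 0.34, were not tested against each other.

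**Figure D1:**
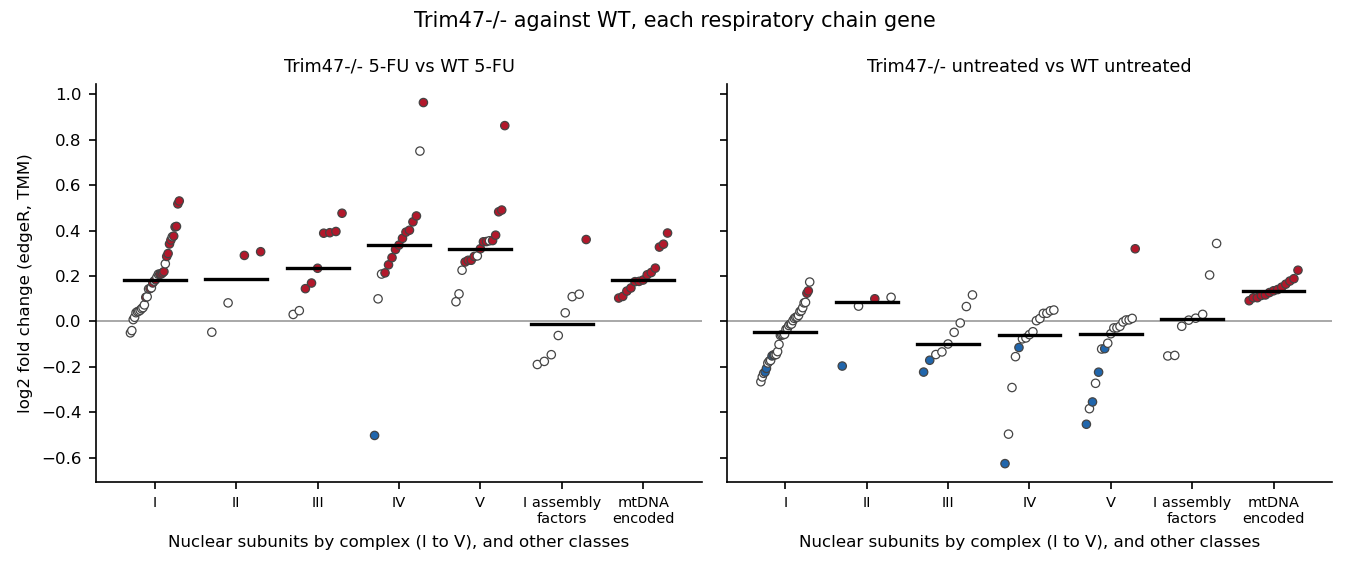
Log2 fold change of each respiratory chain gene in Trim47-/- against WT (y axis), after 5-FU (left) and untreated (right), by complex for nuclear subunits, complex I assembly factors and mitochondrially encoded genes (x axis). Each circle is 1 gene, red where higher and blue where lower at adjusted p under 0.05 and white where not, and bars are class medians. After 5-FU 49 of 81 nuclear subunits are red and 1 is blue, against 4 red and 13 blue untreated, while all 13 mitochondrially encoded genes are red in both. Over all genes 27.2% were called higher and 27.6% lower after 5-FU, and 17.6% and 15.4% untreated. The 13 blue subunits untreated are near that last share.

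Markers of other blood cells moved with the same comparisons. In Trim47-/- against WT after 5-FU, all 8 monocyte and macrophage markers were higher (summed level 1000 to 1013 CPM in Trim47-/- libraries after 5-FU, against 579.2 to 582 CPM in WT libraries after 5-FU), as were all 9 neutrophil markers (6465 to 6848 CPM, against 4048 to 4118 CPM), and 4 of 6 cycling markers were higher and 1 lower. The cycling markers summed to 2302 to 2340 CPM, against 1977 to 2001 CPM. Of 8 LT-HSC markers, 7 were lower (539.1 to 619.3 CPM, against 897.7 to 1052 CPM). Of 8 erythroid markers, 3 were lower (430.1 to 445.2 CPM, against 497.6 to 500.3 CPM), and all 6 megakaryocyte markers were lower (198.5 to 202.7 CPM, against 250.7 to 264.1 CPM). Of 3 surface markers known to be low in LT-HSCs, 2 were lower (1256 to 1264 CPM, against 1371 to 1394 CPM), as were 3 of the 5 B and plasma cell markers tested (207.5 to 242.9 CPM, against 239.3 to 287.6 CPM) and 2 of 4 endothelial and stromal markers (128.6 to 136.6 CPM, against 157.9 to 158.7 CPM).

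Untreated, 6 of 8 monocyte markers were lower in Trim47-/- than in WT and 0 higher (434.5 to 461 CPM in untreated Trim47-/- libraries, against 611 to 631 CPM in untreated WT libraries), as were 5 of 6 megakaryocyte markers (90.26 to 94.43 CPM, against 133 to 134 CPM). Of 8 erythroid markers, 7 were higher (159.8 to 163.1 CPM, against 89.9 to 98.6 CPM), as were 4 of 8 LT-HSC markers (1011 to 1118 CPM, against 886.8 to 993.4 CPM) and 2 of the 3 markers low in LT-HSCs (1704 to 1740 CPM, against 1427 to 1490 CPM). Of 9 neutrophil markers 6 were higher and 3 lower, of 4 endothelial and stromal markers 2 and 1, and of 6 cycling markers 2 and 1, while 0 of 5 B and plasma cell markers passed edgeR's test, 2 of them with an unadjusted p under 0.05 (443.3 to 640 CPM, against 652.2 to 660 CPM). T and NK cell markers, 2 of which were tested, did not pass in either comparison of the genotypes, nor at an unadjusted p under 0.05. The part of these cells in the respiratory chain differences was not tested, and in bulk libraries fewer cells of a type and less RNA per cell cannot be told apart.

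Without the drug, nuclear subunits did not show this pattern. Of the 81, 4 were higher in Trim47-/-, 13 were lower and 64 did not pass (median -0.05), while 17.6% of all genes tested were called higher and 15.4% lower. Complex I had 2 higher and 4 lower, complex II 1 and 1, complex III 0 and 2, complex IV 0 and 2, and complex V 1 and 4. With total-count scaling the nuclear subunits had 5 higher and 9 lower, and with DESeq2's size factors 2 higher and 18 lower, where the split over all genes was 2567 higher and 2717 lower in place of 2873 and 2519. The libraries did not overlap for 7 higher and 21 lower subunits, against 26.3% and 21.6% of all genes. At 1.5-fold 0 were higher and 1 lower, the muscle isoform Cox6a2, against 3.01% and 5.4% of all genes (8.41% in either direction). Cox6a2 averaged about 2.8 CPM over the 12 libraries. Atp5l had the largest fall among members with at least 10 CPM, at 22.8, 22.1 and 21.7 CPM in untreated Trim47-/- libraries, against 31.5, 30.4 and 29.3 CPM in untreated WT libraries (log2 -0.45, SE 0.062, adjusted p = 0.000221). This fall is uncertain, as 67.9% of the summed reads of Atp5l lay in annotated copies. Atp5j, coupling factor 6 of the stalk, fell by 0.35 on the log2 scale, and Sdhb by 0.20. Sdhb stood at 59.9, 63.3 and 58.7 CPM in untreated Trim47-/- libraries, against 66.3, 71.4 and 70.6 CPM in untreated WT libraries. The called subunit that rose most was Atp5d, the delta subunit, at 105, 127 and 111 CPM in untreated Trim47-/- libraries, against 86.8, 104 and 83.4 CPM in untreated WT libraries (log2 0.32, SE 0.101, adjusted p = 0.0306). The lowest Trim47-/- library of Atp5d lay just above the highest WT library, and its call was lost when any 1 of 4 libraries was left out (adjusted p 0.0501 to 0.114). Calls for Ndufs1 (0.12), Ndufv3 (0.13), Ndufb7 (-0.15), Ndufb2 (-0.21), Sdha (0.10), Cox6b1 (-0.11), Uqcr11 (-0.22) and Uqcrq (-0.17) were also lost without 1 library (adjusted p 0.0508 to 0.111). None of the 8 assembly factors passed, and 0 of them had an unadjusted p under 0.05.

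The response to 5-FU was read within each genotype. In Trim47-/-, 73 of the 81 nuclear subunits were higher after 5-FU than untreated and 0 were lower (median 0.44), while 60.5% of all genes were called, 29.6% higher and 30.8% lower. By complex the rises were 32 of 36, 3 of 4, 9 of 9, 13 of 15 and 16 of 17 for complexes I to V, and 14 of the 81 were called higher at 1.5-fold and 0 lower, against 9.42% and 16.8% of all genes (26.2% in either direction). For 73 the 5-FU libraries all lay above the untreated ones and for 0 below, against 32.8% and 33.8% of all genes. Ndufb7 had 74.8, 77.1 and 75.6 CPM after 5-FU, against 46.9, 45.7 and 45.0 CPM untreated (log2 0.72, SE 0.0408, adjusted p = 3.7e-08). Atp5b had 1154, 1152 and 1157 CPM after 5-FU, against 822, 819.9 and 823 CPM untreated (log2 0.49, SE 0.0205, adjusted p = 3.52e-09), so that its 3 libraries within each group lay far closer to each other than the groups did. Markers of other cells moved in this comparison as well. All 9 neutrophil markers were higher (6465 to 6848 CPM after 5-FU, against 3228 to 3283 CPM untreated), as were 7 of 8 monocyte and macrophage markers (1000 to 1013 CPM, against 434.5 to 461 CPM), 7 of 8 erythroid markers (430.1 to 445.2 CPM, against 159.8 to 163.1 CPM) and 5 of 6 megakaryocyte markers (198.5 to 202.7 CPM, against 90.26 to 94.43 CPM). Of 8 LT-HSC markers 6 were lower and 2 higher (539.1 to 619.3 CPM, against 1011 to 1118 CPM), and of 5 B and plasma cell markers 4 were lower (207.5 to 242.9 CPM, against 443.3 to 640 CPM). Of 6 cycling markers 4 were higher and 2 lower (2302 to 2340 CPM, against 2206 to 2223 CPM). The part of these cells in the subunit rises was not tested. The 8 nuclear subunits that did not pass were Ndufa7, Ndufb4, Ndufs3, Ndufs4, Sdha, Cox6a2, Cox6b2 and Atp5g2. Sdha, for one, had 307, 314 and 302 CPM after 5-FU, against 292, 300.2 and 310.2 CPM untreated, and these ranges overlapped.

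In WT, 30 of the 81 nuclear subunits were higher after 5-FU and 3 lower (median 0.11), while 50.6% of all genes were called, 25.2% higher and 25.4% lower. The libraries did not overlap for 35 higher and 5 lower subunits, against 29.7% and 29.2% of all genes, and at 1.5-fold 1 was higher and 1 lower, against 7.35% and 11.5% (18.8% in either direction). The rises were 16 of 36 in complex I, 3 of 4 in complex II, 3 of 9 in complex III, 5 of 15 in complex IV and 3 of 17 in complex V. This comparison depends on scaling: with total counts alone the median of all genes was 0.11 in place of 0.012, the split over all genes was 5762 higher and 3165 lower in place of 4110 and 4150, and 51 nuclear subunits were higher and 3 lower. Relative to the median of all genes, the nuclear median was 0.0972 with total counts and 0.0975 with the TMM scaling. In the same comparison all 8 erythroid markers were higher (497.6 to 500.3 CPM after 5-FU, against 89.9 to 98.6 CPM untreated), as were 8 of 9 neutrophil markers (4048 to 4118 CPM, against 3301 to 3437 CPM). Of 8 monocyte markers 2 were higher and 5 lower (579.2 to 582 CPM, against 611 to 631 CPM), of 6 megakaryocyte markers 5 and 1 (250.7 to 264.1 CPM, against 133 to 134 CPM), of 8 LT-HSC markers 2 and 1 (897.7 to 1052 CPM, against 886.8 to 993.4 CPM), and of 5 B and plasma cell markers 1 and 4 (239.3 to 287.6 CPM, against 652.2 to 660 CPM). Of 6 cycling markers 2 were higher and 4 lower (1977 to 2001 CPM, against 2273 to 2282 CPM). The part of these cells in the subunit changes was not tested. Ndufv3, the small flavoprotein-part subunit, had 43.1, 42.6 and 44.2 CPM after 5-FU, against 32.7, 34.0 and 33.5 CPM untreated (log2 0.37, SE 0.0428, adjusted p = 2.19e-05). Sdha had 321, 310.1 and 323 CPM after 5-FU, against 284, 274 and 284 CPM untreated (log2 0.18, SE 0.0279, adjusted p = 0.000232), and its groups did not overlap. The 3 that fell were Atp5l (-0.53), Cox6a2 (-0.91) and Ndufab1 (-0.31), the acyl carrier protein of mitochondrial fatty acid synthesis that is also a complex I subunit. These falls are uncertain. Of the summed reads, 67.9% for Atp5l and 71.5% for Ndufab1 lay in annotated copies, and Cox6a2 averaged about 2.8 CPM over the 12 libraries. Cox6b2 rose most among members with at least 10 CPM, at 21.8, 20.6 and 19.7 CPM after 5-FU, against 13.6, 12.5 and 10.9 CPM untreated (log2 0.75, SE 0.116, adjusted p = 0.000238).

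**Figure D2:**
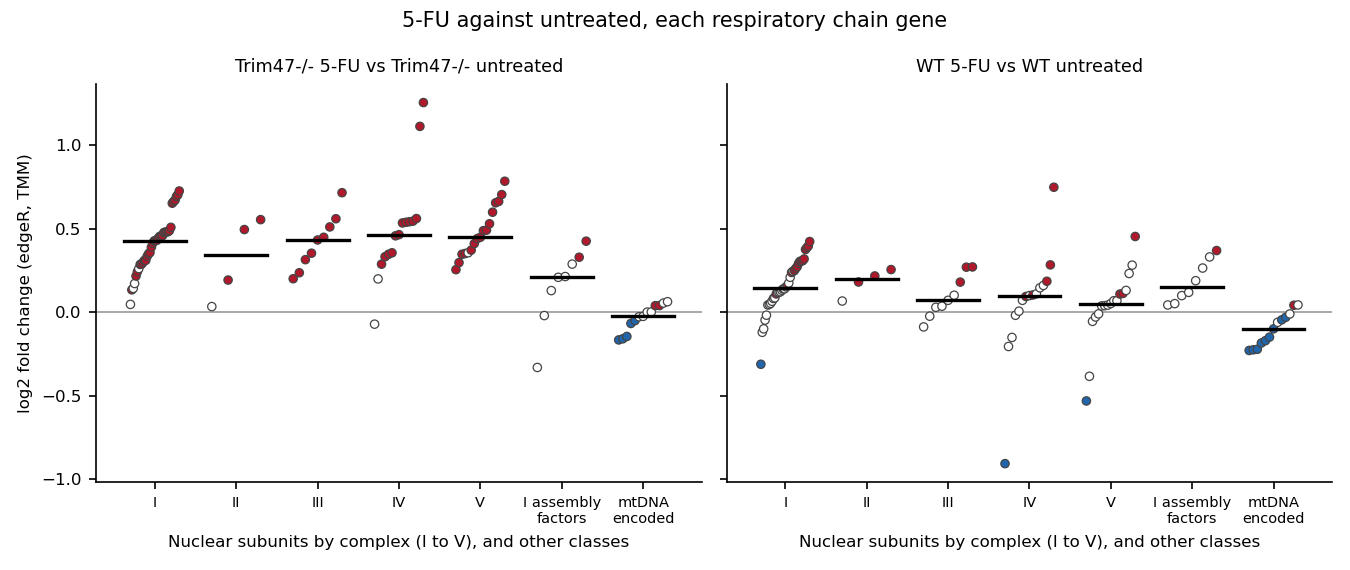
Log2 fold change of each respiratory chain gene after 5-FU against untreated (y axis) in Trim47-/- (left) and WT (right), by class (x axis), with each circle 1 gene, red where higher and blue where lower at adjusted p under 0.05, white where not, and bars for class medians. In Trim47-/- 73 of 81 nuclear subunits are red and 0 blue, in WT 30 are red and 3 blue, and the mitochondrially encoded genes lie near or below 0 in both. Over all genes 29.6% were called higher and 30.8% lower in Trim47-/-, and 25.2% and 25.4% in WT.

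Whether the response differed with genotype was tested as an interaction, the 5-FU response in Trim47-/- minus that in WT. Of the 81 nuclear subunits, 49 had a more positive response in Trim47-/-, 3 a less positive one and 29 did not pass (median 0.30), while 54.9% of all genes were called, 26.4% in the first direction and 28.5% in the second. At 1.5-fold 12 subunits were called in the first direction and 0 in the second, against 12.9% and 17.6% of all genes (30.5% in either). By complex the counts were 17 and 1 for complex I, 2 and 1 for complex II, 7 and 0 for complex III, 11 and 1 for complex IV, and 12 and 0 for complex V. With total-count scaling the median of all genes moved to -0.12, the split over all genes was 3511 and 5533 in place of 4313 and 4644, and the nuclear subunits had 37 and 5. Relative to that median the nuclear median was 0.33. Marker lists also had interactions: all 8 monocyte and 8 of 9 neutrophil markers had a more positive response in Trim47-/-, and all 8 erythroid and 7 of 8 LT-HSC markers a less positive one. Of 6 cycling markers, 3 had a more positive response in Trim47-/- and 0 a less positive one. The interaction was 1.31 for Atp5l (SE 0.0881, adjusted p = 2.54e-07), 0.68 for Ndufb7 (adjusted p = 1.76e-06), 0.65 for Uqcrq (adjusted p = 5.79e-06) and 0.38 for Atp5b (adjusted p = 7.44e-07). That of Atp5l is uncertain, as 67.9% of its summed reads lay in annotated copies. Within complex II the subunits split: Sdhb had 0.49 and Sdhd 0.24, while Sdha had -0.15 (SE 0.0394, adjusted p = 0.00795). The other subunits with a less positive response were Ndufs1 (-0.17) and Cox6b2 (-0.55). Of the 7 core subunits of complex I, 2 were in the first direction and 1 in the second, and of the 29 accessory subunits 15 and 0.

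**Figure D3:**
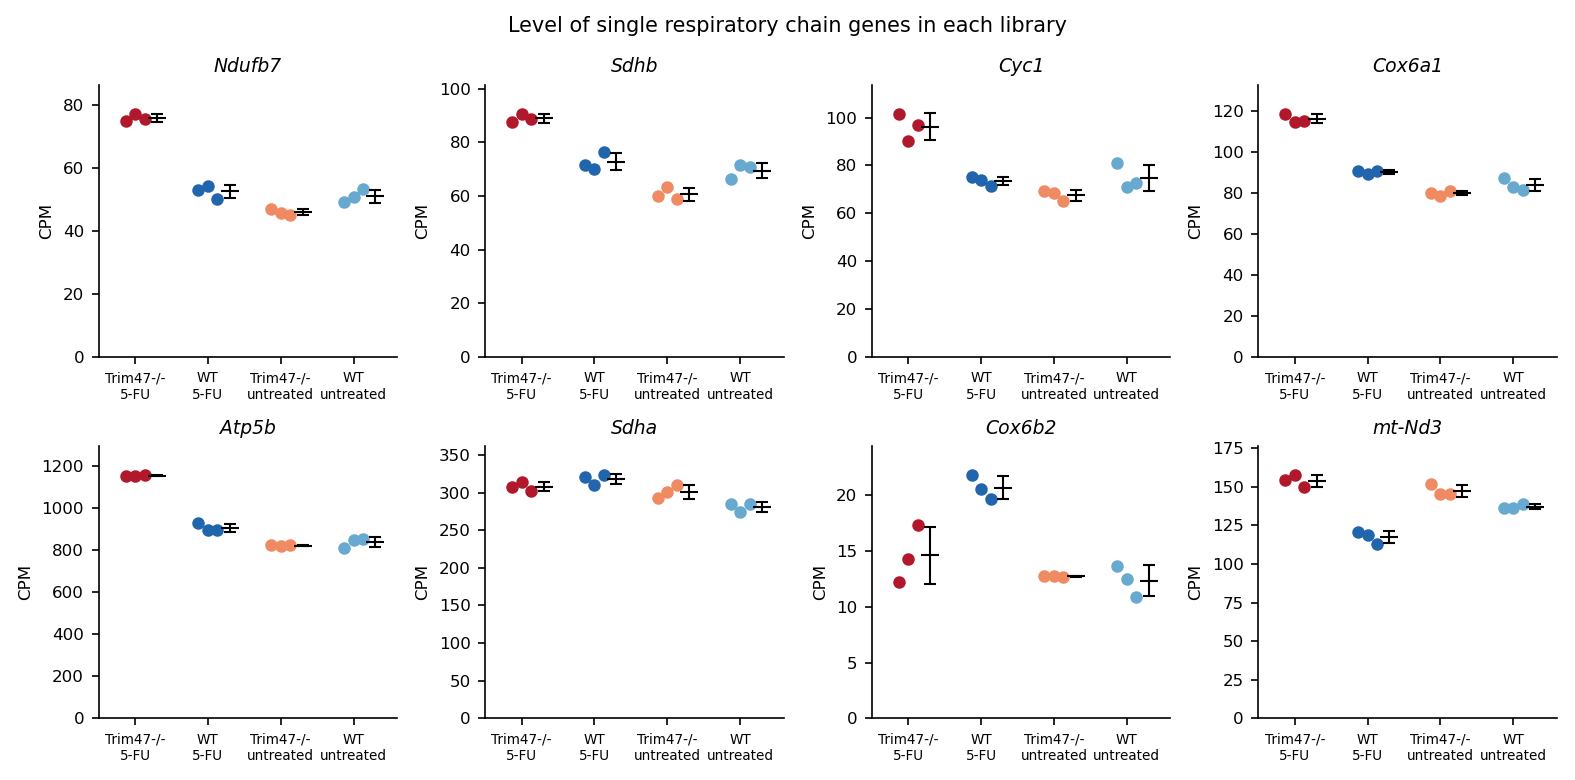
Level of 8 respiratory chain genes in each library, in CPM on axes that start at 0, by group. Points are the 3 libraries of a group, with the mean and SD beside them. Ndufb7, Sdhb, Cyc1, Cox6a1 and Atp5b are highest in all 3 Trim47-/- libraries after 5-FU, Cox6b2 is highest after 5-FU in WT (19.7 to 21.8 CPM), and mt-Nd3 is lowest there (113 to 121 CPM).

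All 13 mitochondrially encoded genes were higher in Trim47-/- than in WT without the drug (median 0.14) and all 13 after it (median 0.18), against the 17.6% and 27.2% of all genes called higher in the same comparisons. Untreated, mt-Cytb, the cytochrome b of complex III, had the largest difference, at 2292, 2292 and 2252 CPM in untreated Trim47-/- libraries, against 1968, 1943 and 1936 CPM in untreated WT libraries (log2 0.23, SE 0.0114, adjusted p = 8.11e-08). mt-Co1 had 9697, 9667 and 9621 CPM in untreated Trim47-/- libraries, against 9113, 9069 and 9024 CPM in untreated WT libraries (log2 0.09, SE 0.0095, adjusted p = 2.74e-05). For all 13 genes, in both comparisons, every Trim47-/- library lay above every WT library; over all genes this held for 26.3% untreated and 30.6% after 5-FU. With total-count scaling 13 were higher untreated and 10 after 5-FU, and 0 were lower in either. With DESeq2's size factors 10 were higher untreated, since mt-Atp8, mt-Nd3 and mt-Nd6 no longer passed (adjusted p 0.0507 to 0.0822), and 13 after 5-FU. The least certain calls were those of mt-Nd6, the member of this set with the lowest level, which were lost without any 1 of 6 libraries untreated and any 1 of 3 after 5-FU (adjusted p 0.0567 to 0.128), and of mt-Atp8 and mt-Nd3 untreated (adjusted p 0.0621 to 0.106).

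After 5-FU the differences were largest for 3 complex I genes. mt-Nd3 had 154, 158 and 149.97 CPM in Trim47-/- libraries after 5-FU, against 121, 119 and 113 CPM in WT libraries after 5-FU (log2 0.39, SE 0.0316, adjusted p = 1.21e-06). mt-Nd1 had 1479.7, 1504 and 1486 CPM in Trim47-/- libraries after 5-FU, against 1191, 1165 and 1174 CPM in WT libraries after 5-FU (log2 0.34, SE 0.0125, adjusted p = 2.24e-09), and mt-Nd2 had 0.33. These encode membrane subunits of complex I around its quinone site and proton path. The same 3 genes were lower after 5-FU than untreated in WT, with -0.18 for mt-Nd1, -0.23 for mt-Nd2 and -0.22 for mt-Nd3. In Trim47-/- the corresponding values were 0.04, -0.03 and 0.06, of which that of mt-Nd1 alone passed, and that call was lost without any 1 of 3 libraries (adjusted p 0.0559 to 0.085). The interaction passed for 4 mitochondrially encoded genes, all of complex I: mt-Nd3 (log2 0.28, SE 0.0445, adjusted p = 0.000222), mt-Nd1 (log2 0.22, SE 0.0176, adjusted p = 9.53e-07), mt-Nd2 (log2 0.20, SE 0.0198, adjusted p = 5.95e-06) and mt-Nd5 (log2 0.07, SE 0.0153, adjusted p = 0.00224). The other 9 did not pass, mt-Cytb among them (-0.01). This count of 4 in 13 is near the share of all genes called in that direction, 26.4%. With total-count scaling mt-Nd1, mt-Nd2 and mt-Nd3 stayed called in the same direction, mt-Nd5 turned to -0.03, and 6 of the 13 were called lower.

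Over the whole set, the mitochondrially encoded genes had 1 called higher and 9 lower after 5-FU in WT (median -0.10), and 2 higher and 5 lower in Trim47-/- (median -0.03). Over all genes 25.2% were called higher and 25.4% lower in WT, and 29.6% and 30.8% in Trim47-/-, so that the 5 of 13 lower in Trim47-/- are near the background. Without replicate 3 of WT after 5-FU the WT median was -0.0646, and without replicate 3 of Trim47-/- after 5-FU the Trim47-/- median was 0.00101. The WT calls of mt-Nd5 and mt-Co3 were each lost without any 1 of 8 libraries (adjusted p 0.0502 to 0.145). The direction in WT depended on scaling. With total counts alone 5 were higher and 6 lower, the median was 0.002, and mt-Co1 had 0.09, mt-Co3 0.06, mt-Nd5 0.07 and mt-Atp8 0.002, where the TMM scaling gave -0.01, -0.05, -0.03 and -0.10. Relative to the median of all genes, the mitochondrial median was -0.11 under either scaling. mt-Cytb fell in both genotypes, by 0.16 in Trim47-/- and by 0.15 in WT, and mt-Nd4 by 0.17 and 0.17.

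**Figure D4:**
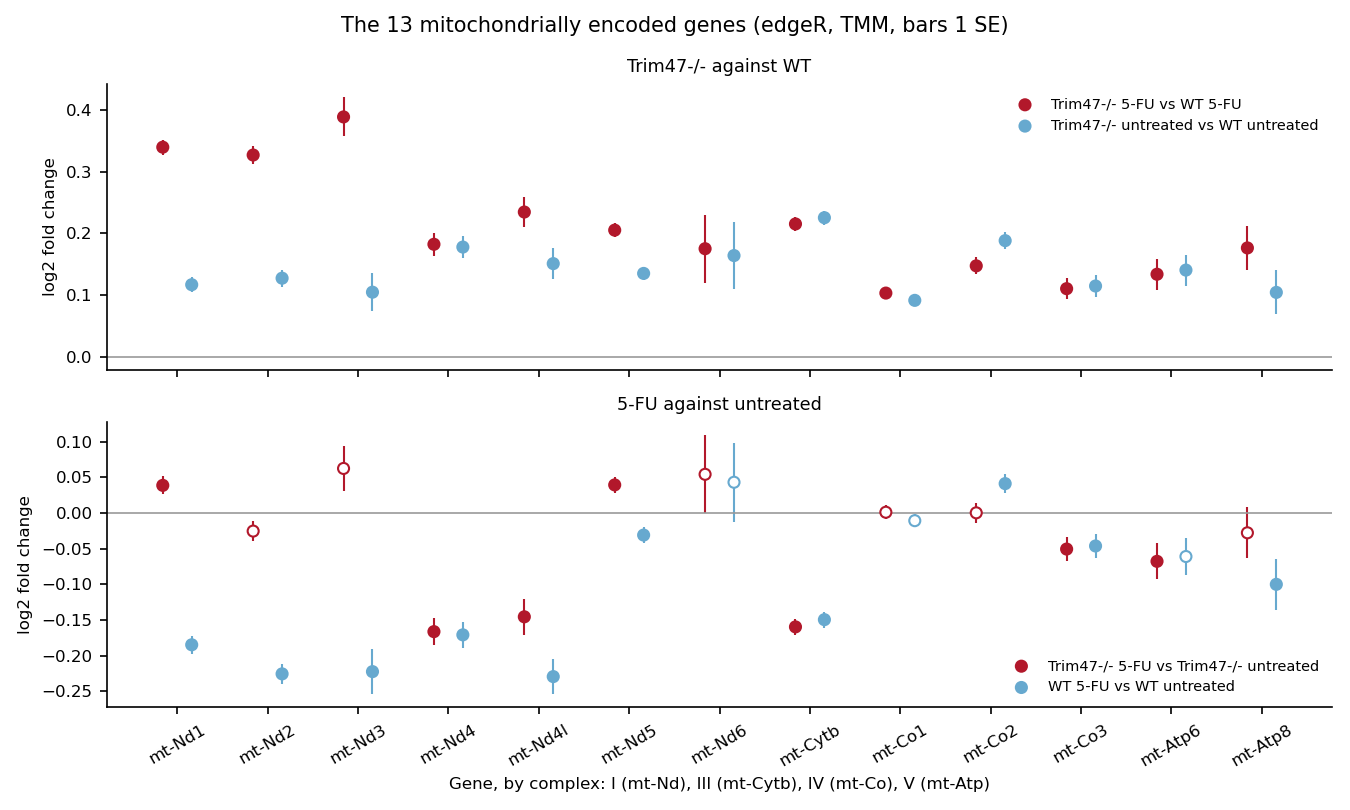
Log2 fold change with 1 SE (y axis) of the 13 mitochondrially encoded genes (x axis), for Trim47-/- against WT (top; red after 5-FU, blue untreated) and 5-FU against untreated (bottom; red Trim47-/-, blue WT). Filled points passed adjusted p under 0.05. Every point of the top panel is filled and above 0, and mt-Nd1, mt-Nd2 and mt-Nd3 have red points that stand apart from the blue in both panels.

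Summed over genes, the nuclear subunits took 0.775%, 0.761% and 0.746% of all counts in the Trim47-/- libraries after 5-FU, against 0.675%, 0.683% and 0.681% in the WT libraries after 5-FU. In the untreated Trim47-/- libraries they took 0.574%, 0.573% and 0.573%, against 0.570%, 0.574% and 0.575% in the untreated WT libraries. As a share of all counts, the sum therefore separated the genotypes after 5-FU and overlapped between them without it. The overlap depended on scaling. With TMM-scaled totals the untreated nuclear sum was 5790 to 5823 CPM in Trim47-/- libraries, against 5867 to 5898 CPM in WT libraries, without overlap. The mitochondrially encoded sum was 2.63% ± 0.03 of counts in Trim47-/- libraries after 5-FU, against 2.49% ± 0.0348 in WT libraries after 5-FU, and 2.68% ± 0.0115 in untreated Trim47-/- libraries, against 2.42% ± 0.00529 in untreated WT libraries (SD, n = 3 each). The log2 ratio of the nuclear to the mitochondrial sum, which needs no library scaling, was -1.79 ± 0.0111 in Trim47-/- libraries after 5-FU and -1.88 ± 0.0268 in WT libraries after 5-FU. It was -2.23 ± 0.00571 in untreated Trim47-/- libraries and -2.08 ± 0.0103 in untreated WT libraries. The ratio was therefore higher in Trim47-/- than in WT after 5-FU (a difference of 0.08) and lower in Trim47-/- than in WT untreated (a difference of -0.15), with no overlap between the groups in either case. Within each genotype it was higher after 5-FU than untreated, by 0.44 in Trim47-/- and by 0.20 in WT. As the members were chosen with earlier results known, these sums were given no test.

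**Figure D5:**
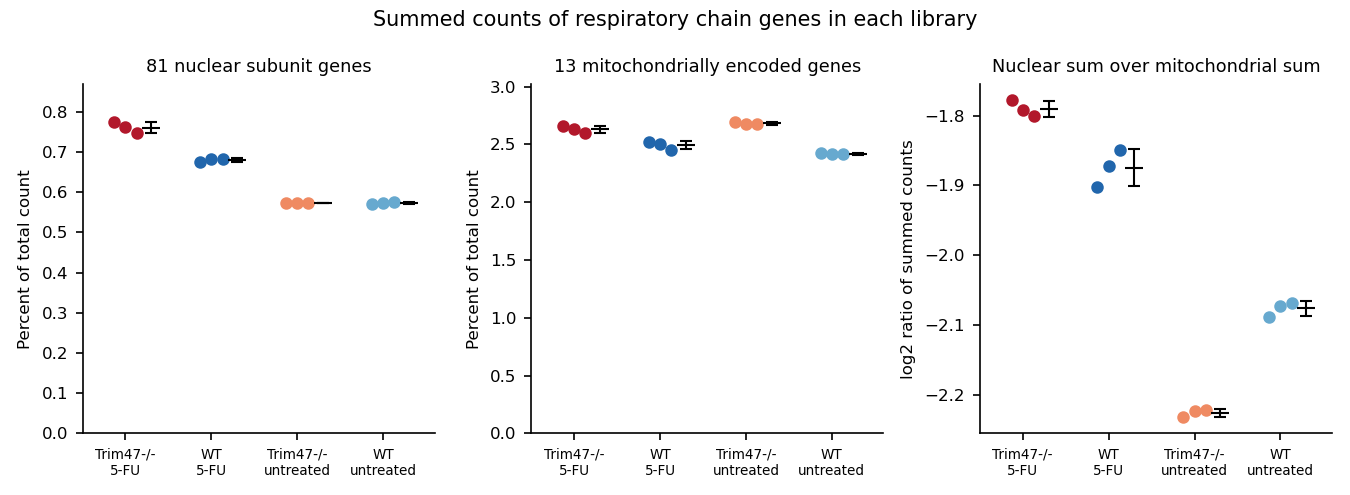
Percent of total counts in 81 nuclear subunit genes (left) and in 13 mitochondrially encoded genes (middle), and the log2 ratio of the nuclear to the mitochondrial sum (right), by group. Points are the 3 libraries, with the mean and SD beside them, and the percent axes start at 0. The nuclear share is 0.761% in Trim47-/- after 5-FU and 0.68% in WT, and the ratio is highest after 5-FU in Trim47-/- (-1.79) and lowest in untreated Trim47-/- (-2.23).

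Where a subunit has alternative genes, the widely used one was the more abundant. Per length, Cox4i1 had 68.4 FPKM and Cox4i2, the isoform known from lung, 2.05 FPKM. Cox6a1 had 77.5 FPKM and its muscle isoform Cox6a2 4.12 FPKM, Cox6b1 71.0 FPKM and Cox6b2 5.4 FPKM, and Cox7a2 37.3 FPKM and its muscle isoform Cox7a1 0.758 FPKM. Cox4i1 was higher in Trim47-/- after 5-FU by 0.28, a call lost without either of 2 libraries (adjusted p 0.0629 and 0.0703), while Cox4i2 had 4.62, 3.4 and 3.34 CPM in Trim47-/- libraries after 5-FU, against 2.27, 1.71 and 1.83 CPM in WT libraries after 5-FU (log2 0.96, SE 0.163, adjusted p = 0.000409). Of the 3 genes that encode the same c subunit of the ATP synthase rotor, Atp5g3 had 53.2 FPKM, Atp5g1 1.56 FPKM and Atp5g2 1.06 FPKM. After 5-FU Atp5g3 was higher in Trim47-/- by 0.35 and Atp5g1 by 0.48, and Atp5g2 had 0.36 and did not pass. Of all reads on Atp5g1 and its near-identical annotated copies, 79.4% lay in the copies, so its level, its place among the 3 genes and its change are uncertain. Cox7a2l, a factor of respiratory supercomplexes and not a subunit, did not pass in any of the 5 tests; its Trim47-/- libraries spread from 123 to 194 CPM after 5-FU. Ndufa4l2, a relative of Ndufa4, had 1 count in all 12 libraries and was not tested.

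Nuclear subunit genes are known targets of the transcription factor NRF1, and as so many moved together their promoters were searched for its palindrome. The windows were the RefSeq promoters of GRCm38.p6, from 250 bases before to 50 bases after each annotated start, and the search covered both strands for GCGC followed by any base and then TGCGC. Of the 81 nuclear subunits, 66 matched a window by name, and 17 of these held the letters (25.8%), against 1402 of 27025 genes with a window (5.19%). The YY1 letters AAGATGGC stood in 10 of the 66 (15.2%), against 3.19% of all genes, the ETS-family letters CCGGAAGT in 5 (7.58%), against 4.31%, and TATAAA in 6 (9.09%), against 15.7%. By complex, the NRF1 letters stood in 7 of 32 windows for complex I, 2 of 3 for complex II, 1 of 5 for complex III, 1 of 11 for complex IV and 6 of 15 for complex V. The 27025 genes were not limited to the 16319 genes tested here, while all 81 nuclear subunits were tested, so the sets are not alike. A match is a description of the letters and shows no binding.

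Stretches of 120 bases from the windows, all upstream of the start site, are given for 4 genes that hold the letters, from complexes I, II, IV and V, because the 4 genes differ in how they responded; the complex III match, in Uqcrc1, lay past the start site. They were chosen after their values were seen. Capitals mark the NRF1 letters, and each is written 5′ to 3′ on the strand of the gene, with the first match 16, 98, 162 and 50 bases before the start in the order given. The stretches are chr13:73328483-73328602, minus strand for Ndufs6, an accessory subunit of complex I, chr13:74350274-74350393, minus strand for Sdha, chr5:115349056-115349175, minus strand for Cox6a1 and chr5:108434400-108434519, minus strand for Atp5k, the e subunit of ATP synthase.
Ndufs6: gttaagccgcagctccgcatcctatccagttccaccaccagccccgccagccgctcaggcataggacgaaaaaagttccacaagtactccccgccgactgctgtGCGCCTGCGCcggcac
Sdha: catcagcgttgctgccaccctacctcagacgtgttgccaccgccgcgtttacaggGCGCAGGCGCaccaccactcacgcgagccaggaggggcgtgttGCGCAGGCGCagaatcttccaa
Cox6a1: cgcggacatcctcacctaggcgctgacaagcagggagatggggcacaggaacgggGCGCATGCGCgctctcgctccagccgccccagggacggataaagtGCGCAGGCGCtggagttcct
Atp5k: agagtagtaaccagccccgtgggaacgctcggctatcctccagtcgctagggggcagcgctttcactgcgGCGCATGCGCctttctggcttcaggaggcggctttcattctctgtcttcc
Sdha and Cox6a1 each hold 2 copies in these 120 bases, and the interaction was -0.15 for Sdha and 0.44 for Cox6a1. Ndufs6 and Atp5k hold 1 copy each, with interactions of 0.53 and 0.71. Of the 17 subunits with the letters, 12 had a more positive and 1 a less positive response to 5-FU in Trim47-/-, with a median of 0.37. Of the 49 without them, 28 had a more positive and 1 a less positive response, with a median of 0.28. Over all 81 nuclear subunits the counts were 49 and 3, and over all genes the shares were 26.4% and 28.5%. The difference between the sets with and without the letters was not tested.

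Genes that serve the chain were set beside its subunits. The shares of all genes for the same calls were 27.2% higher and 27.6% lower in Trim47-/- against WT after 5-FU, 17.6% and 15.4% untreated, and 26.4% and 28.5% in the interaction. The 17 genes of the Krebs cycle list, which supply its electrons, included Pdha1, Pdhb and Dlat of pyruvate dehydrogenase. Of the 17, 13 were higher in Trim47-/- than in WT after 5-FU and 0 lower (median 0.24). Those higher included Idh3a of isocitrate dehydrogenase (0.44) and Dld (0.26). Without the drug 1 was higher and 4 lower. In the interaction 13 were in the positive and 1 in the negative direction. Of 43 assembly factors outside the name rule, 10 were higher and 4 lower after 5-FU (median 0.05), no larger a share of risers than over all genes, among them Cox11, which delivers copper to complex IV (0.65), and Cox15 of heme A synthesis (-0.34). The 20 genes of the cytochrome c and coenzyme Q list included Etfa, Etfb, Etfdh, Gpd2 and Dhodh, of enzymes that lead electrons to coenzyme Q. Of the 20, 6 were higher and 5 lower, near those shares. Cycs, the soluble electron carrier, had 0.48 and Coq8a -0.81. The lists were not tested against each other.

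Factors that copy, transcribe and process mitochondrial DNA and its RNA did not move in 1 direction. Of 36, 11 were higher and 11 lower in Trim47-/- than in WT after 5-FU, and 8 higher and 3 lower untreated, where the shares of all genes were 27.2% and 27.6% after 5-FU and 17.6% and 15.4% untreated. The counts after 5-FU are near those shares. Polg2, the accessory subunit of the mitochondrial DNA polymerase, was higher untreated (0.49) and lower after 5-FU (-0.62), and Tbrg4, an RNA-binding protein of mitochondrial messages, was lower untreated (-0.24) and higher after 5-FU (0.44). Of 16 regulators of respiratory genes, 4 were higher and 7 lower after 5-FU. Hif1a, the hypoxia factor, was higher (0.88), and Sirt3, a mitochondrial deacetylase, was lower (-0.58). Nrf1, whose letters were searched for in the promoters, had 26.7 to 28.8 CPM in Trim47-/- libraries after 5-FU, against 30.6 to 32.5 CPM in WT libraries after 5-FU (log2 -0.20, SE 0.0503, adjusted p = 0.00605), with no overlap between the groups. It was also lower in Trim47-/- untreated (-0.16), and its interaction did not pass (-0.03). A link between the level of Nrf1 and those of the subunits was not tested. The lists were chosen with earlier results of these data known.

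Some members share reads with near-identical copies elsewhere in the genome. By comparison of transcripts, 35 of the 108 had at least 1 annotated copy of 90% identity or more over 200 bases, 64 copies in all, and for 5 members most of the summed reads lay in copies. These were Ndufs3 (90.8%), Atp5g1 (79.4%), Ndufab1 (71.5%), Atp5l (67.9%) and Atp5h (52.1%), so their counts are uncertain. Of the 13 mitochondrially encoded genes, 10 had annotated copies, among them mt-Co2 (20.9% of summed reads in copies) and mt-Atp6 (17.5%). With copies added, mt-Co2 after 5-FU against untreated in Trim47-/- had -0.0349 in place of 0.0001. Another gene overlapped 18 members on the same strand and 33 on the opposite strand, and as the strand setting of the counting is not given in the sources used here, reads of such pairs may not be told apart.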

How the data were processed

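RNA-seq libraries of 12 bone marrow LT-HSC samples were compared, 3 per group. The authors deposited a table of raw read counts and FPKM per gene and library, per the file headers. CASAVA 1.8, HISAT2, StringTie, edgeR and the GRCm38 build are named in the submitters' processing notes, with no parameters.

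Counts were tested with edgeR 4.0.16 (R 4.3.3; TMM scaling, filterByExpr, quasi-likelihood test) in 1 fit of all 12 libraries. All p-values were adjusted by Benjamini-Hochberg over the 16319 genes kept, with a threshold of 0.05, and log2 changes are those of this fit. The SE of a log2 change was derived from its test, as the absolute change over the square root of the F statistic. CPM used TMM-scaled library sizes. Levels of different members were ranked by the deposited FPKM, and CPM were summed over marker lists. DESeq2 1.42.0, other scalings and filters, gene copies (BLAST 2.17.0, at least 90% identity over 200 bases), a replicate block and leaving out each library were alternatives. Libraries held 13919649 to 20703198 counts, which limits the precision of members below 10 CPM. The 3 libraries of a group differed beyond counting noise, so none was merged. Between pairs of libraries of a group, the chi-square per gene against counting noise averaged 5.954 to 8.951. Its median was 0.696 to 0.77, which is still above the median that counting noise alone gives for such a chi-square. The excess thus lay mostly in part of the genes, and a typical gene varied closer to counting noise.

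Named genes were all 13 mitochondrially encoded genes, complex II, isoform sets, core subunits, and per comparison and complex up to 2 with the smallest p in each direction and the highest FPKM, the largest rise and fall at 10 CPM or more, and up to 2 per pathway list and direction. Ndufs8, Ndufaf8, Uqcrc2, Uqcrh, Ndufs6, Atp5k, Nrf1 and the members named for uncalled or copy-rich counts were named after their values were seen. The members and lists were chosen with earlier results of these data known.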

Additional observations from a re-analysis of the deposited data

Results flagged for a closer look

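The 5-FU response differed between genotypes by the interaction test of edgeR (adjusted p under 0.05) for 49 nuclear subunits with a more positive response in Trim47-/- and 3 with a less positive one. The counts were 17 and 1 in complex I, 2 and 1 in complex II, 7 and 0 in complex III, 11 and 1 in complex IV, 12 and 0 in complex V, 1 and 0 among complex I assembly factors and 4 and 0 among mitochondrially encoded genes, against 26.4% and 28.5% of all genes. The counts of assembly factors (1 of 8) and mitochondrially encoded genes (4 of 13) are below and near that share in the first direction, in that order.

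Among complex I subunits the log2 difference of responses, Trim47-/- minus WT, was 0.68 for Ndufb7, 0.52 for Ndufb8, 0.28 for Ndufv1 and -0.17 for Ndufs1. In complex II it was 0.49 for Sdhb, 0.24 for Sdhd and -0.15 for Sdha, and in complex III 0.65 for Uqcrq, 0.53 for Cyc1 and 0.28 for Uqcrfs1. In complex IV it was 1.46 for Cox4i2, 0.83 for Cox6a2, 0.45 for Cox6b1, 0.44 for Cox6a1, 0.33 for Cox8a, 0.30 for Cox7a2 and -0.55 for Cox6b2. In complex V it was 1.31 for Atp5l, 0.74 for Atp5g2, 0.41 for Atp5g3, 0.38 for Atp5b and 0.26 for Atp5a1. The value of Atp5l is uncertain, as 67.9% of its summed reads lay in annotated copies. Calls for Cox7a2 and Atp5g2 were lost without 1 library, any 1 of 4 for Cox7a2 and 1 for Atp5g2. Among mitochondrially encoded genes it was 0.28 for mt-Nd3, 0.22 for mt-Nd1, 0.20 for mt-Nd2 and 0.0703 for mt-Nd5, the last of which turned negative with total-count scaling.

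Mitochondrial ribosomal RNA, which was no part of the comparisons, took 0.248% of counts in Trim47-/- libraries after 5-FU and 0.159% in untreated Trim47-/- libraries, and 0.216% in WT libraries after 5-FU and 0.168% in untreated WT libraries (means, n = 3 each). These libraries were selected for poly(A) RNA, and the part of that selection in the difference was not tested.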

How the results depend on the processing

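Results are given in the order Trim47-/- against WT untreated, Trim47-/- against WT after 5-FU, 5-FU against untreated in WT, the same in Trim47-/-, and the interaction. At 1.5-fold, members called were 1, 2, 2, 14 and 12, and all genes called 1373, 3301, 3074, 4274 and 4977. At adjusted p under 0.01, 14 members and 3391 genes were called untreated. Total counts without TMM, chosen after seeing the data, called 70 members in WT after 5-FU, and over all genes 5762 higher and 3165 lower. This scaling gave nuclear medians of 0.18 after 5-FU between genotypes, 0.21 in WT and 0.21 for the interaction, and mitochondrial medians of 0.11, 0.00249 and -0.0846. Under it mt-Atp8 (0.00249), mt-Co1 (0.0917), mt-Co3 (0.0562) and mt-Nd5 (0.0715) changed direction in WT after 5-FU, and mt-Co1 (-0.0846), mt-Nd4 (-0.0919) and mt-Nd5 (-0.0262) in the interaction, because the scaling moved the median of all genes. Without a filter on low counts, nuclear medians were 0.22 between genotypes after 5-FU, 0.40 in Trim47-/- and 0.26 for the interaction, mitochondrial medians 0.15, -0.0606 and -0.0305, and mt-Co1 had -0.0341 in Trim47-/- after 5-FU; the cause was not tested. With gene copies added, also chosen after seeing the data, mt-Co2 had -0.0349 in Trim47-/- after 5-FU, and the log2 difference of the untreated mitochondrial share was 0.16. With assembly factors and other nuclear members the nuclear median between genotypes after 5-FU was 0.22. With TMM-scaled totals, log2 differences of the nuclear share were -0.0187, 0.24 and 0.14 in the first 3 comparisons, and of the mitochondrial share 0.13, 0.16 and -0.058.

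Leaving out 1 library at a time, members called ranged from 20 to 29, 56 to 65, 35 to 45, 78 to 84 and 50 to 56, and all genes called from 4551 to 5436, 8222 to 8929, 7522 to 8381, 9177 to 9914 and 8556 to 8684. Nuclear medians ranged from -0.07 to -0.04, 0.25 to 0.27, 0.0984 to 0.12, 0.41 to 0.45 and 0.30 to 0.34, and mitochondrial medians from 0.11 to 0.14, 0.16 to 0.21, -0.13 to -0.0646, -0.0305 to 0.00101 and 0.00442 to 0.0419. Log2 differences of the nuclear share ranged from -0.0032 to 0.00379, 0.15 to 0.18, 0.24 to 0.25 and 0.39 to 0.42, of the mitochondrial share from 0.15 to 0.15, 0.07 to 0.09, 0.04 to 0.06 and -0.03 to -0.02, and of their ratio from -0.16 to -0.15, 0.07 to 0.10, 0.19 to 0.22 and 0.43 to 0.44. Of the named genes' results, 38 lost and 17 gained a call without 1 library. A replicate block called 29, 61, 44, 84 and 57 members. Over all genes it called 2742 higher and 2446 lower, 4384 and 4377, 4040 and 4085, 4782 and 4960, and 4267 and 4560. Correlations ranged from -0.13 to 0.0818 for same-numbered libraries and from -0.0985 to 0.1014 for differently numbered ones. These show no pairing by replicate number but cannot exclude one, as a weak pairing would leave little correlation. DESeq2's test called 21, 56, 34, 79 and 51 members. Over all genes it called 2293 higher and 2263 lower, 3953 and 4173, 3590 and 3964, 4306 and 4901, and 3973 and 4285.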
